A study of Rattus norvegicus with 16 samples.

Results

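Notch signalling genes were examined in the rat hippocampus 24 h after fluid percussion brain injury. The set held 10 genes: the transcriptional repressors Hes1, Hes5, Hes6, Hey1 and Hey2, the receptors Notch1, Notch2 and Notch3, and the ligands Dll1 and Jag1. They were found by the gene name printed for each probe on the array, which gave 12 probes of 30367 and 10 gene names of 26583, with a pair of probes each for Hey2 and Notch1. The set was chosen by measured values: Hes5 had stood out in these arrays for its lower level in TBI than in Sham rats, and the other members were added around it. That comparison is therefore described without a test, and the arrays it shares with the others are named where they matter.

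The data came from single-colour arrays of 16 adult male Sprague-Dawley rats, 1 array per rat. The 3 Naïve rats were neither anaesthetised nor handled, and the 2 Sham rats were anaesthetised and prepared for injury but not injured. The 3 TBI rats received severe fluid percussion injury, as did the 3 TBI+PMI, the 3 TBI+JM6 and the 2 TBI+E33 rats. PMI (PMI-006) and JM6, compounds known by code names, were given by oral gavage, and E33, which the methods call estradiol, was injected, under the skin per the labels and into the abdomen per the methods. The methods describe 3 rats per group, and 2 each of Sham and TBI+E33 were analysed here. No vehicle is named for the TBI group of the arrays. Whole hippocampus was used, so in these bulk samples fewer cells of a type and less RNA per cell cannot be told apart.

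The number of probes well above background was 16282 to 18245 on the 8 arrays of Naïve, Sham and TBI rats and 20259 to 24984 on the 8 arrays of drug-treated rats. These sets of 8 were scanned in separate sessions, so drug and scanning session cannot be told apart wherever a drug group is set against TBI. Within the sessions, the Sham arrays shared a slide that held no TBI array, so TBI minus Sham cannot be told apart from slide. Likewise the TBI+PMI arrays shared a slide that held no TBI+E33 array. Among the lists of cell markers, 5 or 6 of 6 genes of the hippocampal fields were above background on every array. Markers of choroid plexus and ependyma varied by rat: their summed level, in units of the 75th percentile of the array, was 76.8 in Naïve 2, 122 in Sham 1 and 151 in TBI+PMI 1 against 0.624 to 8.14 on the other arrays. Their part in the results was not tested beyond leaving these 3 arrays out.

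Notch receptors are activated by Delta and Jagged ligands on a neighbouring cell. Cleavage by an ADAM protease and then by gamma-secretase frees the intracellular domain, which binds the DNA-binding protein RBPJ and switches on the Hes and Hey repressors. In the adult hippocampus the pathway is known for keeping neural stem cells of the dentate gyrus undifferentiated, and its receptors and targets are also found in astrocytes and blood vessels. Hes6 differs from its relatives in that it opposes Hes1 and favours neuronal differentiation.

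The RBPJ site is the sequence element that ties a target gene to Notch, and it is shown for the Hes and Hey genes whose promoter holds it. The core TGGGAA was searched on both strands in the 250 bases before the start of each gene, in RefSeq promoters of the GRCr8 build, which held 9 of the 10 members and not Hey1. It was present in 4 of the 9, Hes1, Hes5, Hey2 and Dll1, with 2 matches in each, and in no window of Hes6, Notch1, Notch2, Notch3 or Jag1. Over 33469 promoters of the same length, 22.1% held at least 1 match and 2.71% held 2 or more. In the following stretches, written 5′ to 3′ on the strand of the gene, capitals mark TGGGAA or, where the core lies on the opposite strand, its complement TTCCCA.
Hes1, chr11:84213139-84213178, minus strand: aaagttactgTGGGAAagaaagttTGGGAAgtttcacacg
Hes5, chr5:170804327-170804494, plus strand: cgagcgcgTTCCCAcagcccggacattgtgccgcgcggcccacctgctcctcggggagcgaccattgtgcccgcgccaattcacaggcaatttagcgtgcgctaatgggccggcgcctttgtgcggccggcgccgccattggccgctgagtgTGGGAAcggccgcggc
Hey2, chr1:28640915-28641055, plus strand: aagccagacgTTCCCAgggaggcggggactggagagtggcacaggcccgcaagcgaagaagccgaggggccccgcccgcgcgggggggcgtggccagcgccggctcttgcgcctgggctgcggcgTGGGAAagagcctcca
In Hes1 the cores lay on the same strand, 8 bases apart, and in Hes5 and Hey2 they lay on opposite strands, pointing away from each other, 138 and 109 bases apart. The longer form GTGGGAA, which contains the core, was matched at both places in Hes5 and at 1 place each in Hes1, Hey2 and Dll1, against 5.27% of all promoters with at least 1 match. A match describes the letters and does not show that the site is bound.

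Hes5 was read by a probe of 60 bases at chr5:171764166-171764225 on the plus strand of rn4, the build of the array annotation, and its sequence is given because the leading result rests on this 1 probe.
Hes5 probe: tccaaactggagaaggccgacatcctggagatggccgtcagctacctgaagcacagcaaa

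Hes5, a direct Notch target of neural stem cells and astrocytes, was highest in Sham, intermediate in Naïve and lowest in TBI rats. Levels are given as log2 of the intensity over the 75th percentile of that array, taken among probes well above background, so that a difference of 1 is a factor of 2. Hes5 was at -3.26, -4.03 and -3.86 in the Naïve rats, at -2.08 and -1.69 in the Sham rats and at -4.47, -5.40 and -6.59 in the TBI rats. The ranges of these groups did not overlap, and TBI 3, with the lowest value of all, was the only array of 16 on which Hes5 was not well above background. TBI minus Sham was -3.60 (SE 0.75), a 12.1-fold lower level in TBI, where 2 of 3 arrays measured the gene. It was -3.13 under quantile normalization and -1.66 with normexp background correction, so the fold depended on how background was handled. Sham and TBI arrays were on separate slides, so this difference cannot be told apart from slide. With slide as a fixed block, linked only through the Naïve arrays, it was -3.38. From Naïve to Sham the difference was 1.83 (SE 0.75) and from Naïve to TBI it was -1.76 (SE 0.67), and both share arrays with the comparison that led to Hes5. With each array left out in turn the difference of TBI minus Sham ran from -4.10 to -3.04. Hes5 was picked for these values, so this range, the SE and the gap between groups describe them and are no support.

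Hey1, a partner of the Hes proteins that is also a Notch target in endothelial cells, was higher in Sham than in Naïve rats. It was at -3.34, -3.29 and -3.36 in Naïve, at -1.95 and -1.74 in Sham and at -2.57, -3.79 and -3.22 in TBI rats. The Sham rats stood above all 6 of the others, and the TBI rats spread on both sides of the Naïve rats. Sham minus Naïve was 1.48 (SE 0.34, limma adjusted p = 0.0207), a 2.79-fold rise, and it was 1.47 between the 2 Sham and the 2 Naïve arrays of the same slide. With slide as a fixed block in the model Hey1 was not called (limma adjusted p = 0.205). The adjusted p was 0.0403 without Naïve 2 and 0.0503 to 0.128 without any other single array of these groups, and it was 0.0706 under quantile normalization. TBI minus Naïve was 0.14 (SE 0.30, adjusted p = 0.864), and TBI minus Sham, described only, was -1.35 (SE 0.34).

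Hes6 was lower in TBI than in Naïve rats. Its levels were 0.36, -0.11 and -0.32 in Naïve, -0.28 and 0.06 in Sham and -0.80, -0.72 and -1.04 in TBI rats. All 3 TBI rats lay below all 5 uninjured rats, whereas the Naïve and Sham ranges overlapped. The TBI minus Naïve difference was -0.83 (SE 0.22, limma adjusted p = 0.0496), or 1.78-fold lower. That p is at the threshold: with each array left out in turn it was 0.0501 to 0.188, within the slide of the TBI arrays, which holds 1 Naïve array, the difference was -0.54, and under quantile normalization it was -0.81 (adjusted p = 0.0787). Sham minus Naïve was -0.09 (SE 0.25, adjusted p = 0.884), and TBI minus Sham, described only, was -0.74 (SE 0.25).

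**Figure D1:**
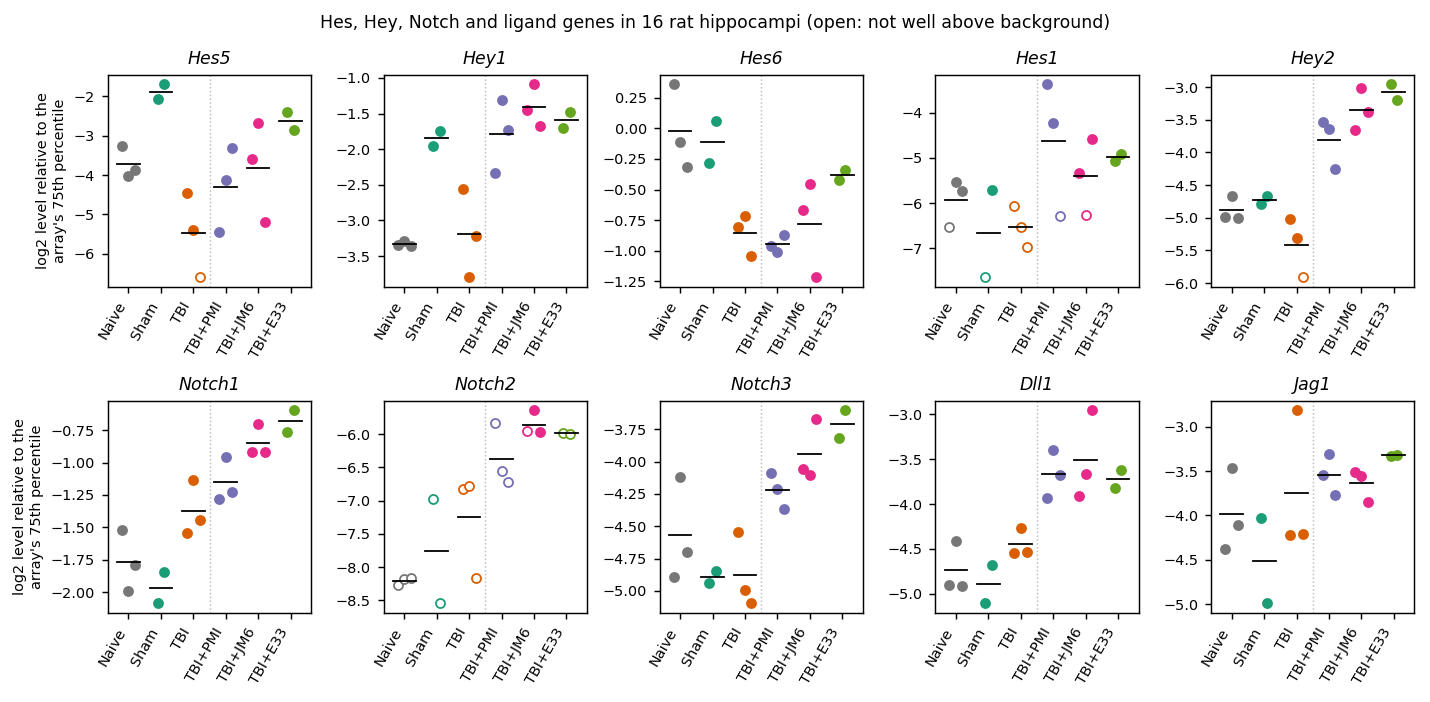
Levels of the 10 genes by the brightest probe of each, as log2 of intensity over the 75th percentile of the array (vertical axis, scaled by gene), in 6 groups of 2 or 3 rats. Points are rats, open where the probe was not well above background, bars are group means, and the dotted line parts the scanning sessions. Hes5 runs from -1.69 in Sham 2 to -6.59 in TBI 3. On this scale Hey2 is higher in the 8 drug-treated than in the 8 other rats, which its group means under quantile normalization did not keep.

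Hes1, the Notch target of many progenitor cells, was dim. It was well above background on 9 of 16 arrays, and on 0 of 3 TBI arrays, 1 of 2 Sham arrays and 2 of 3 Naïve arrays. Its levels ran from -6.54 to -5.53 in Naïve, were -7.63 and -5.71 in Sham and ran from -6.96 to -6.06 in TBI rats, so that these groups overlapped. TBI was at least 1.02-fold lower than Naïve, and the difference was not called (limma adjusted p = 0.697).

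Hey2, known as a Notch target of vessels and cardiac muscle, was at -4.98, -4.67 and -5.003 in Naïve, at -4.80 and -4.67 in Sham and at -5.03, -5.32 and -5.91 in TBI rats. The TBI rats were lowest, without overlap with either group. TBI minus Naïve was -0.53 (SE 0.26, limma adjusted p = 0.264), with a 95% interval of -1.11 to 0.04. The second Hey2 probe was well above background on 2 of 16 arrays and was not tested.

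Of the receptors and ligands that could be tested, limma called none in TBI vs. Naïve or Sham vs. Naïve. At an unadjusted limma p under 0.05 there was 1, Notch1 in TBI vs. Naïve. That threshold was passed by 20.9% of all tested probes for TBI minus Naïve and by 22.7% for Sham minus Naïve. For Notch1 the brighter probe ran from -1.99 to -1.52 in Naïve, was -2.09 and -1.84 in Sham and ran from -1.54 to -1.13 in TBI rats. It was thus highest in TBI, with overlap with Naïve and none with Sham, and TBI minus Naïve was 0.40 (SE 0.17, limma adjusted p = 0.214). The other Notch1 probe was not well above background on any of these 8 arrays. Notch2 was well above background on 2 of 16 arrays, both TBI+JM6, and was not tested.

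Notch3, the receptor of vascular smooth muscle and pericytes, was well above background on all 16 arrays, as were Dll1 and Jag1. Notch3 ran from -4.89 to -4.12 in Naïve, was -4.94 and -4.85 in Sham and ran from -5.10 to -4.55 in TBI rats, and Dll1 ran from -4.91 to -4.41, was -5.11 and -4.68 and ran from -4.54 to -4.27. The groups overlapped except for Dll1, which was higher in every TBI than in every Sham rat. TBI minus Naïve was -0.31 (SE 0.22, limma adjusted p = 0.465) for Notch3, 0.29 (SE 0.25, adjusted p = 0.560) for Dll1 and 0.23 (SE 0.37, adjusted p = 0.789) for Jag1. In Jag1 the TBI group was split, with TBI 2 at -2.82 and the other TBI rats at -4.23 and -4.21. Sham minus Naïve was between -0.53 and -0.15 for these 3 genes and passed the test for none of them.

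Counted over the 9 members that could be tested, 1 was called in TBI vs. Naïve (Hes6, lower), where 4.71% of all tested probes were called at an adjusted p under 0.05. In Sham vs. Naïve 1 was called (Hey1, higher) against 8.08% of all probes. Members are not counted in TBI vs. Sham, where 9.41% of all probes were called, because this comparison led to the set. Where groups are said not to overlap, the share of all probes without overlap is not given, so nothing is read from it. The median difference of the members was -0.31, -0.15 and 0.01 in these comparisons, against 0.04, 0.06 and -0.03 over all tested probes. Under quantile normalization the lowest adjusted p of the 9 was 0.0787 for Hes6 in TBI vs. Naïve and 0.0706 for Hey1 in Sham vs. Naïve. Without the 3 arrays rich in choroid plexus markers, which leaves 1 Sham array assumed to vary like the rest, Hes5 was at -3.79 in TBI minus Sham, Hey1 at 1.61 in Sham minus Naïve (adjusted p = 0.0940) and Hes6 at -0.88 in TBI minus Naïve (adjusted p = 0.124).

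Cell markers moved between the same groups. The summed level of 8 astrocyte markers, all above background on every array, was 89.7 to 116 in Naïve, 86.8 to 110 in Sham and 69.9 to 82.3 in TBI rats, lowest in TBI without overlap. Of the 8, Aldh1l1 and Gjb6 were called lower in TBI vs. Naïve and Gfap, the marker of reactive astrocytes, was called higher (2.53, limma adjusted p = 0.00272). That of 7 neuronal markers was 19.6 to 26.3, 31.0 to 35.7 and 19.4 to 26.8, highest in Sham without overlap, with 5 to 7 of 7 above background. That of 6 markers of the hippocampal fields was 5.05 to 6.41, 10.2 to 11.2 and 4.77 to 9.26, also highest in Sham without overlap. For 8 endothelial markers, with 7 of 8 above background, the sums were 2.67 to 5.16, 4.44 to 5.08 and 2.55 to 3.79, and for 7 markers of radial glia and progenitors they were 7.05 to 9.24, 6.67 to 10.6 and 8.88 to 17.2. Microglial sums were 4.88 to 5.32, 5.27 to 8.27 and 6.84 to 9.19, mural sums 1.34 to 4.85, 1.67 to 1.93 and 1.94 to 9.56, and sums of oligodendrocyte progenitor markers 5.22 to 6.53, 6.29 to 7.12 and 4.997 to 6.91. The part of these shifts in the Hes5, Hey1 and Hes6 results was not tested. On the choroid plexus arrays Hes5 was the lowest or the lower value of its group in Naïve 2, Sham 1 and TBI+PMI 1.

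The wider pathway was described with a list of 61 further genes, of which 55 had a probe and 51 could be tested. In TBI vs. Naïve 4 were called lower and 1 higher, where 4.71% of all tested probes were called, 394 lower and 680 higher. The ligands Dll3 and Dner fell by 0.94 (SE 0.19, limma adjusted p = 0.0172) and by 0.91 (SE 0.19, adjusted p = 0.0195) on the log2 scale. Nrarp, a Notch target that limits the pathway, fell by 1.04 (SE 0.21, adjusted p = 0.0185), and the corepressor Ctbp2 fell by 0.67 (SE 0.17, adjusted p = 0.0387). Each of these 4 was also called lower under quantile normalization. Lfng, which adds sugar to Notch receptors and so tunes their ligand choice, rose by 1.04 (SE 0.27, adjusted p = 0.0441), and was not called under quantile normalization (0.78, adjusted p = 0.182).

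In Sham vs. Naïve 4 genes of the list were called higher and 1 lower. Of all tested probes 8.08% were called, 1496 higher and 346 lower, so the list shared the direction of the whole array. Adam10, the protease of the first Notch cleavage, was below background in all 3 Naïve rats. Its Sham mean was at least 2.12-fold higher (limma adjusted p = 0.0152). Neurl1, a ubiquitin ligase acting on ligands, rose by 2.16 (SE 0.51, adjusted p = 0.0241). Numbl, a relative of the Notch inhibitor Numb, was also below background in Naïve, with a Sham mean at least 4.43-fold higher (adjusted p = 0.0201). The glycosyltransferase Rfng rose by 0.61 (SE 0.16, adjusted p = 0.0384). Ctbp2 fell by 0.73 (SE 0.19, adjusted p = 0.0331), as it did in TBI rats. Only Numbl and Ctbp2 were also called under quantile normalization.

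In TBI minus Sham, given as a description, Neurl1 stood at -1.99 (SE 0.51), Snw1, a coactivator of the RBPJ complex, at -1.43 (SE 0.36), Rfng at -0.83 (SE 0.16) and Nrarp at -0.81 (SE 0.24). These were the 4 genes of the list past the adjusted threshold there, and no test is read from them. All were lower in TBI. Of all tested probes 9.41% were past it, 1479 lower and 667 higher. Rfng and Nrarp were past it under quantile normalization too. Over the 51 genes the median difference was 0.00 in TBI vs. Naïve, 0.06 in Sham vs. Naïve and -0.10 in TBI vs. Sham, near the medians of all tested probes.

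**Figure D2:**
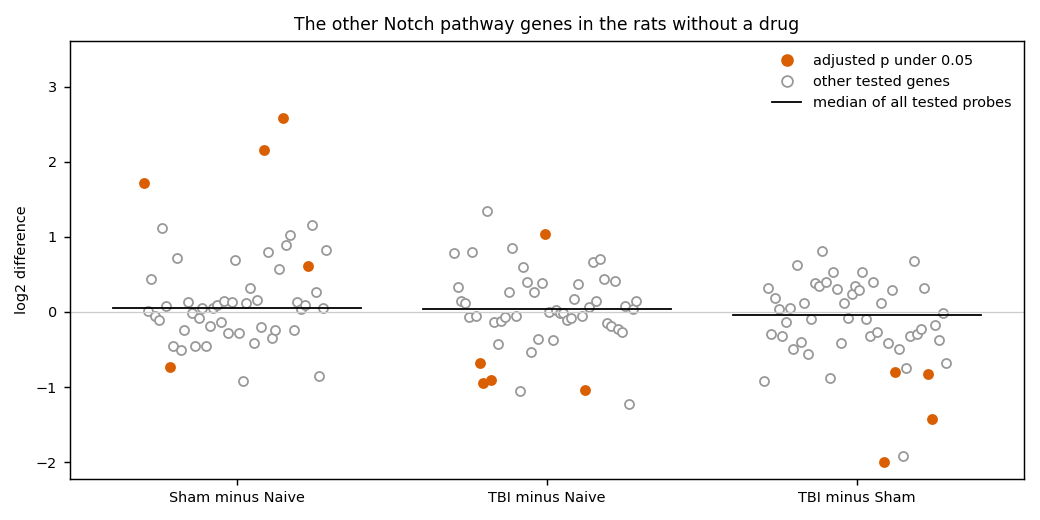
Log2 differences (vertical axis) of the 51 tested further pathway genes in the 3 comparisons among rats without a drug, in alphabetical order within each comparison. Filled points passed an adjusted p of 0.05, open points did not, and the bar is the median of all tested probes. The filled points lie from -1.99 to 2.58, below 0 in all 4 cases for TBI minus Sham, where they are a description only.

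By the 75th percentile scale, most members were higher in each drug group than in TBI, and so were most probes on the arrays. In TBI+JM6 vs. TBI 6 of 9 members were called, all higher, with 70.1% of all tested probes called. In TBI+PMI vs. TBI 5 were called higher against 56.7%, and in TBI+E33 vs. TBI 6 against 70.3%. The counts for JM6 and E33 include Hes5, whose low TBI values led to the set, so its calls are no test. That for PMI includes Hes1, which passed the filter only through TBI+E33, so its call is no test either. The median difference of the members was 0.94, 0.78 and 1.17, against 0.99, 0.79 and 1.08 over all probes. The count for PMI was 3 without TBI 2 or TBI+PMI 1 and 2 without TBI 3 or TBI+PMI 2. Quantile normalization, which forces all arrays to a common distribution of values, called 2, 1 and 2 members in the 3 comparisons, all lower, with 27.2%, 19.2% and 20.4% of all probes called. The direction of most members against TBI thus depended on the scaling, and drug and scanning session cannot be told apart.

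Hey2 and Hey1 were above TBI under both scalings. Hey2 was at -3.54, -3.63 and -4.26 in TBI+PMI, at -3.66, -3.01 and -3.38 in TBI+JM6 and at -2.95 and -3.19 in TBI+E33 rats. Every drug-treated rat lay above every rat without a drug on this scale. Under quantile normalization the Hey2 means were 6.52 in Naïve, 6.45 in Sham and 5.94 in TBI rats. With PMI, JM6 and E33 they were 6.18, 6.47 and 6.64, so PMI lay below both uninjured groups. The difference from TBI was 1.61 (SE 0.26, limma adjusted p = 0.000292) with PMI, 2.07 (SE 0.26, adjusted p = 3.13e-05) with JM6 and 2.34 (SE 0.29, adjusted p = 3.52e-05) with E33. Under quantile normalization it was 0.23, 0.53 and 0.70, and none was called (adjusted p of 0.065 to 0.486).

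Hey1 was at -2.33, -1.31 and -1.73 in TBI+PMI, at -1.44, -1.09 and -1.68 in TBI+JM6 and at -1.71 and -1.48 in TBI+E33 rats. All 8 values were above those of the TBI rats and spread around the Sham values. The difference from TBI was 1.41 (SE 0.30, limma adjusted p = 0.00194) with PMI, 1.79 (SE 0.30, adjusted p = 0.000266) with JM6 and 1.60 (SE 0.34, adjusted p = 0.0013) with E33. Quantile normalization gave 0.60, 0.84 and 0.57, none of them called (adjusted p of 0.0721 to 0.279).

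Hes5 was at -5.45, -4.13 and -3.32 in TBI+PMI, at -3.59, -2.69 and -5.19 in TBI+JM6 and at -2.39 and -2.86 in TBI+E33 rats. Only the TBI+E33 rats were all above the TBI rats, while 1 rat in each of the other drug groups was at the TBI level. The TBI arrays are those whose low values led to Hes5, so the differences are given without a test: 1.18 (SE 0.67) with PMI, 1.66 (SE 0.67) with JM6 and 2.86 (SE 0.75) with E33. Under quantile normalization they were -0.29 (SE 0.82), -0.02 (SE 0.82) and 1.32 (SE 0.92).

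Hes6 was at -0.96, -1.01 and -0.87 in TBI+PMI, at -0.67, -0.45 and -1.21 in TBI+JM6 and at -0.42 and -0.34 in TBI+E33 rats. The TBI+PMI and TBI+JM6 rats overlapped with the TBI rats, and the TBI+E33 rats were above them. The differences from TBI were -0.09, 0.08 and 0.47 for PMI, JM6 and E33 (limma adjusted p of 0.723, 0.760 and 0.0978). Quantile normalization gave -0.72, -0.69 and -0.31, and scaling to the E1A control spots called Hes6 lower with PMI (-1.10, adjusted p = 0.0128) and JM6 (-0.99, adjusted p = 0.0161) and not with E33 (-0.82).

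The Hes1 mean, with no TBI array above background, was at least 2.54-fold higher with PMI than in TBI. The bounds were 1.49-fold with JM6 and 1.98-fold with E33. TBI+PMI and TBI+JM6 rats overlapped with the TBI rats. By the measured signals limma called Hes1 with PMI (1.89, adjusted p = 0.0316) and not with JM6 or E33. Hes1 passed the filter only through TBI+E33, a drug group where it was high, so this call is no test. It was measured on 2 of 3 TBI+PMI, 2 of 3 TBI+JM6 and both TBI+E33 arrays. TBI+PMI 1, an array rich in choroid plexus markers, held the highest Hes1 value of all, -3.37, and without the 3 such arrays Hes1 was no longer called with PMI (adjusted p = 0.116). Quantile normalization gave 0.37 with PMI (adjusted p = 0.679) and turned the direction for JM6 (-0.80, adjusted p = 0.317) and E33 (-0.76, adjusted p = 0.419).

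Notch3 and Dll1 were called higher against TBI in all 3 drug groups by the 75th percentile and were lower in all of them after quantile normalization. For Notch3 the differences were 0.66, 0.94 and 1.17 for PMI, JM6 and E33 (limma adjusted p of 0.0213, 0.00233 and 0.00121), and after quantile normalization -0.71, -0.63 and -0.60 (adjusted p of 0.0107, 0.0132 and 0.0333). For Dll1 they were 0.78, 0.94 and 0.73 (adjusted p of 0.0186, 0.00535 and 0.034), and after quantile normalization -0.44, -0.47 and -1.0005, of which only the last was called (adjusted p = 0.0109).

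Notch1 and Jag1 moved less on the 75th percentile scale. Notch1 by its brighter probe was 0.22, 0.52 and 0.69 above TBI with PMI, JM6 and E33 (limma adjusted p of 0.286, 0.0168 and 0.00709) and -0.43, -0.26 and -0.13 after quantile normalization, none called. By the dimmer probe, below background in TBI, the Notch1 means were at least 1.69-fold, 2.16-fold and 2.30-fold higher. This probe passed the filter only through TBI+JM6 and TBI+E33, where it was high, so these values are given without a test. After quantile normalization the dimmer probe was at -0.06, 0.04 and -0.18 for PMI, JM6 and E33, with none called. Jag1 was 0.21, 0.12 and 0.43 above TBI and not called, and after quantile normalization it was -0.90, -1.29 and -1.09 (adjusted p of 0.0819, 0.0171 and 0.0624).

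**Figure D3:**
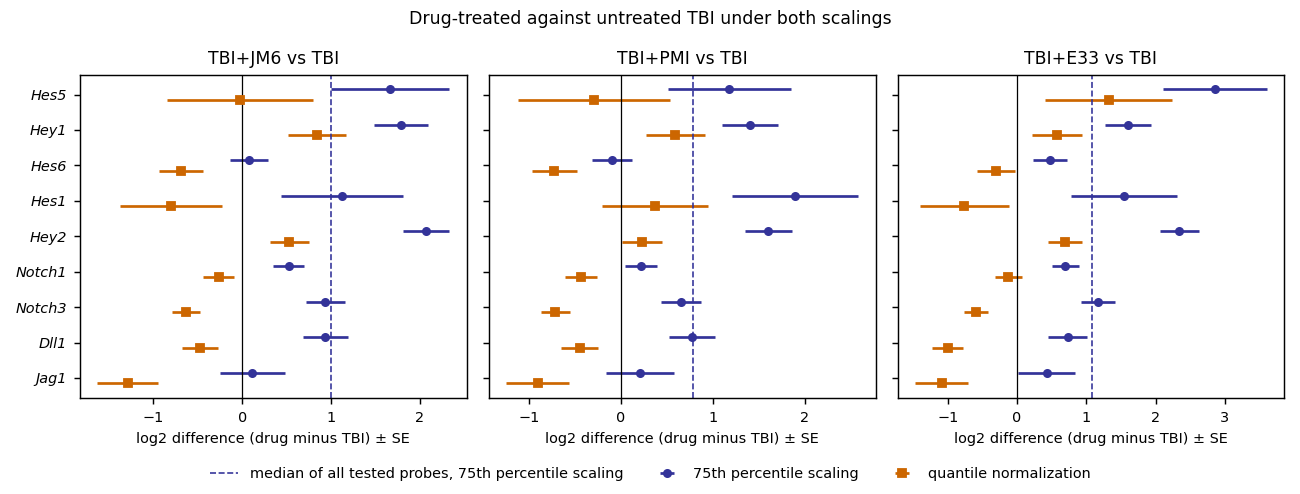
Log2 difference of each drug group from TBI (horizontal axis) for the 9 tested members with its standard error, by 75th percentile scaling (circles) and quantile normalization (squares). The dashed line is the median of all tested probes by the first scaling, 0.99, 0.79 and 1.08 from left to right. Hey1 and Hey2 lie above 0 by both, and Notch3 and Dll1 change side.

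The further pathway genes behaved in the same way. By the 75th percentile, 41 of 51 were called with JM6 (40 higher), 35 with PMI and 42 with E33 (all higher), with medians of 0.95, 0.76 and 1.06. Over all tested probes 70.1%, 56.7% and 70.3% were called, with medians of 0.99, 0.79 and 1.08. Named within each role, not across the list, the called genes with the largest differences were the ligands Jag2 in all 3 drug groups and Dll4 and Dll3 with JM6 and E33, and Notch4, the only receptor listed, in all 3. Notch4 (0.68 with PMI, 0.65 with JM6 and 0.67 with E33) and Dll3 lay below the medians of the list. The protease Adam10 and the glycosyltransferase Poglut1 were so in all 3, with Pofut1 for PMI and JM6 and Lfng for E33. The ubiquitin ligases Neurl1 and Mib1, the coactivators Maml1, Maml3 and Snw1 and the corepressors Tle4 and Ctbp2 were so in all 3, with Cir1 for PMI and JM6 and Tle2 for E33. The inhibitor Numbl and the ligase Itch were so in all 3, with Dtx4 for JM6 and E33 and Dtx3 for PMI. The proneural gene Neurog2, which the Hes proteins repress, was so in all 3, with Heyl for JM6 and E33 and Id1 for PMI. Maml1 and Dll4 passed the filter only through drug groups, and Itch was above background on no Naïve or TBI array. Calls against TBI of genes that passed only through a drug group are no test.

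After quantile normalization 9 of the 51 were called with JM6, 7 with PMI and 7 with E33, beside 27.2%, 19.2% and 20.4% of all tested probes. Numbl was called higher with JM6 (1.80) and PMI (1.58), and Rfng with JM6 (0.56) and E33 (0.68), and these were higher by the 75th percentile too, with Numbl above background on 1 of 3 TBI arrays. Dll3, Mib1, Ep300 and Dtx2 were called lower in all 3 drug groups, Dll3 at -1.10 with JM6, -1.48 with PMI and -1.51 with E33, where the 75th percentile gave 0.73, 0.10 and 0.64. Ep300, a histone acetyltransferase of the Notch complex, was the 1 gene called lower with JM6 on the 75th percentile scale too (-0.42, SE 0.17, limma adjusted p = 0.0426). Dtx2, Rfng and Ep300 were named after their values had been seen.

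The drug groups were also set against each other, on arrays that were scanned together and had no part in the choice of Hes5. The TBI+PMI and TBI+E33 arrays were on separate slides, so drug and slide cannot be told apart between these groups. The doses and routes of the drugs differed, so these values compare the groups as treated. No member was called in 3 comparisons of 9 members each, where 0.0131% (TBI+JM6 vs. TBI+PMI), 0.0175% (TBI+JM6 vs. TBI+E33) and 0.11% (TBI+PMI vs. TBI+E33) of all tested probes were. At an unadjusted p under 0.05, limma counted 4 members in TBI+PMI vs. TBI+E33 (Hes5, Hes6, Hey2 and Notch1, all lower with PMI) and 0 in each of the others, and the methods' t-test counted 3 in the same comparison. Of all tested probes, 14.7% were lower with PMI at that p in TBI+PMI vs. TBI+E33. The median over all tested probes was -0.26, so the members shared the direction of the whole array. With slide as a fixed block that median was -0.03.

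Hes5 and Hes1 had the widest intervals. For Hes5, TBI+PMI minus TBI+E33 was -1.68 (95% interval -3.34 to -0.01, limma adjusted p = 0.317), without overlap between the groups. TBI+JM6 minus TBI+E33 was -1.19 (-2.86 to 0.47, adjusted p = 0.99997) and -1.31 within the slide that holds both E33 arrays and 2 JM6 arrays. TBI+JM6 minus TBI+PMI was 0.48 (-1.01 to 1.97, adjusted p = 0.869). These intervals include differences of several fold, so a like level in the 3 groups was not shown. Hes1 differed by -0.77 (-2.30 to 0.76) for TBI+JM6 minus TBI+PMI, by -0.41 (-2.12 to 1.29) for TBI+JM6 minus TBI+E33 and by 0.36 (-1.35 to 2.06) for TBI+PMI minus TBI+E33.

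The other members had narrower intervals. In TBI+PMI minus TBI+E33, Hes6 was at -0.57 (95% interval -1.11 to -0.02, limma adjusted p = 0.302), Hey2 at -0.74 (-1.38 to -0.10, adjusted p = 0.254) and Notch1 at -0.47 (-0.91 to -0.04, adjusted p = 0.277). None of these 3 genes passed the adjusted test. The PMI and E33 values did not overlap in these 3 genes or in Notch3. The share of all probes without overlap is not given, and the median of all tested probes was itself lower with PMI (-0.26). Hey1 differed by -0.19 (-0.95 to 0.56) between TBI+PMI and TBI+E33, by 0.19 (-0.57 to 0.94) between TBI+JM6 and TBI+E33 and by 0.38 (-0.29 to 1.06) between TBI+JM6 and TBI+PMI. The summed astrocyte markers ranged over 78.3 to 83.6 for TBI+PMI rats, 89.5 to 98.1 for TBI+JM6 rats and 103 to 106 for TBI+E33 rats, rising in the same order as the mean of Hes5. Endothelial sums were 4.39 to 4.94 with PMI and 5.83 to 5.94 with E33, and sums of oligodendrocyte progenitor markers 7.27 to 7.45 and 8.53 to 8.88, both lower with PMI without overlap. The TBI+PMI and TBI+E33 arrays were on separate slides. The part of these sums in the members' values was not tested. None of the 51 further pathway genes was called by limma in any of the 3 comparisons. At an unadjusted p under 0.05 limma counted 6, 0 and 10 of these 51 in TBI+JM6 vs. TBI+PMI, TBI+JM6 vs. TBI+E33 and TBI+PMI vs. TBI+E33. Of all tested probes, 8.84%, 2.81% and 15% were at that p in the same order.

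**Figure D4:**
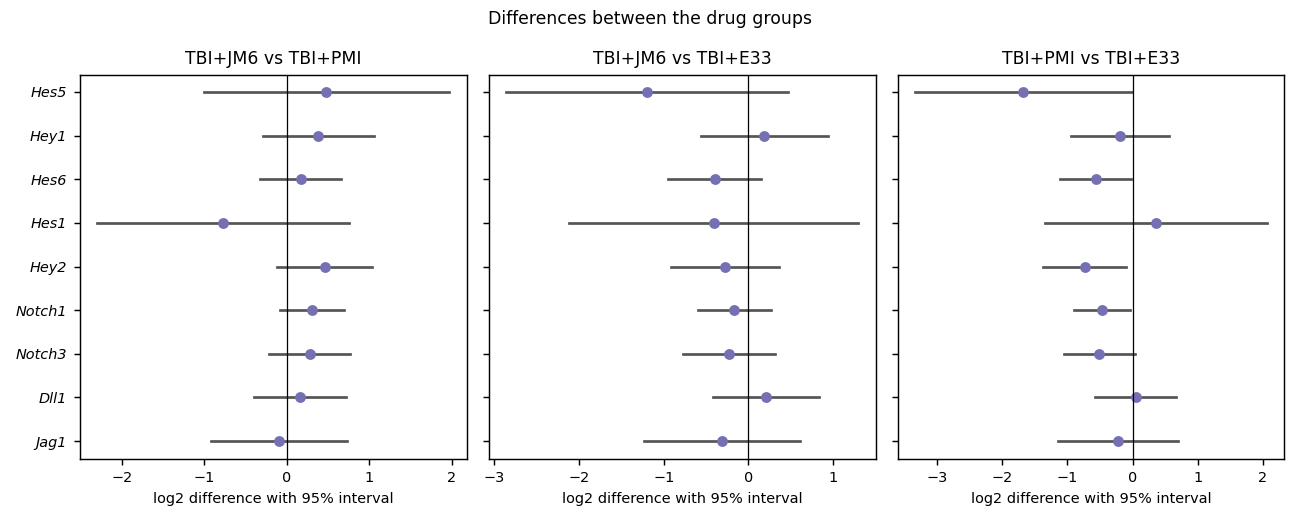
Log2 differences between the drug groups (horizontal axis, first group minus second) for the 9 tested members, with 95% intervals from the limma model. Most intervals cross 0, and those of Hes5 and Hes1 are the widest, as for Hes5 in TBI+PMI minus TBI+E33 (-3.34 to -0.01).

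The genes whose levels ran most like Hes5 were sought among 13989 probes, by the root mean squared difference over the 16 arrays after the mean of each scanning session was removed. Cml1 (0.67), Cdc42ep4 (0.70), Plxnb1 (0.71), Btbd17 (0.71) and Fam59b (0.72) were nearest, where Hes5 itself varied by 1.31 about its own means. Cdc42ep4 followed it closely in the rats without a drug, with group means of -3.85 in Naïve, -1.77 in Sham and -4.36 in TBI rats on the log2 scale. Among the members Hey1 (1.02), Hes6 (1.03) and Hey2 (1.11) came nearest, and the others were at 1.31 to 1.73. The likeness is over 16 arrays of the same libraries and describes the pattern alone.

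**Figure D5:**
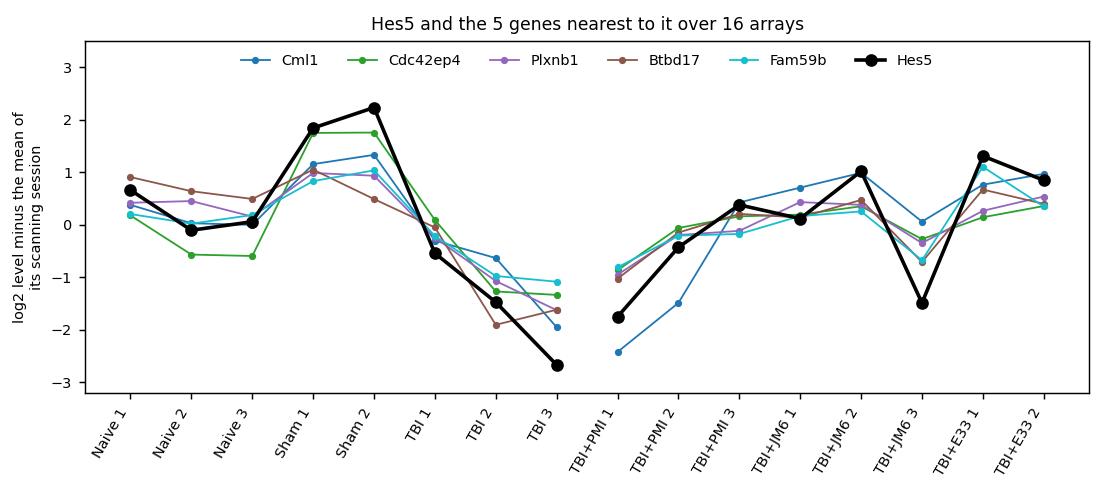
Levels of Hes5 (black) and of the 5 genes nearest to it, each as log2 level minus its mean in the scanning session (vertical axis), on the 16 arrays (horizontal axis). All 6 lie above 0 in the Sham rats and below 0 in TBI 2 and TBI 3, and among the drug-treated rats Hes5 is lowest in TBI+PMI 1 (-5.45 before centring).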

How the data were processed

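RNA of 16 hippocampi was amplified with RiboAmp HS or MessageAmp II, not stated for which rat, and hybridised to single-colour Agilent rat arrays. The deposited intensity values came from Feature Extraction 9.5.3.1, which subtracts background. The deposited matrix held a ratio, which the authors' methods give as intensity over the 75th percentile of probes above background on the array (median 0.14 on every array), and it served as an alternative. Spots of a probe were averaged and log2 of the deposited intensity was taken relative to the 75th percentile of the probes well above background. Tested probes were those that all arrays of some group measured well above background (22827 of 30367 probes). One limma model over all groups (R 4.3.3, limma 3.58.1, 10 residual degrees of freedom) gave moderated tests, Benjamini-Hochberg adjusted over all tested probes, with calls at an adjusted p under 0.05. A gene was read by its brightest probe. A bound is given where a probe was above background on no array of a group and on some of the other. It sets the mean of the brighter group against a floor for the dim group. Per array the floor is the higher of the lowest signal among probes well above background and the probe's own signal. Bounds did not enter the limma model, whose p values use the measured signals, also those below background. Such a bound is on the measured means and leaves out the spread between rats. Number of arrays limits the precision. Replicates correlated at 0.966 to 0.987, and no pair shared identical values.

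The members and gene lists were chosen with earlier results of these data known. Pathway genes were named as the up to 3 called genes of each role with the largest difference in a comparison, and genes like Hes5 as the 5 nearest. Of the genes that this rule names, 1 is not reported here. Marker lists covered astrocytes, radial glia and progenitors, neurons, hippocampal fields, endothelial and mural cells, microglia, oligodendrocyte progenitors and choroid plexus. Ktelc1, Neurl and Pcaf on the array were read as Poglut1, Neurl1 and Kat2b. On simulated data of 21901 probes with 200 changed, 33% of 2-fold and 77% of 4-fold changes were recovered for TBI vs. Naïve and 38% and 79% for TBI+JM6 vs. TBI+PMI. Alternatives were other scalings, backgrounds, filters, tests, blocks and left-out arrays.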

Additional observations from a re-analysis of the deposited data

How the results depend on the processing

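Among the single genes, 1488 values under an alternative kept their side of the threshold (96 of them, not called under either setting, changed sign), 136 lost the call, 22 gained one and 37 that were called under either setting reversed. In the order TBI vs. Naïve, Sham vs. Naïve, and JM6, PMI and E33 vs. TBI, the members called were 1, 1, 6, 5 and 6. Under quantile normalization they were 0, 0, 2, 1 and 2. TBI vs. Sham is not counted because it led to the set. The first counts for JM6 and E33 include Hes5, and that for PMI includes Hes1. Over all tested probes, quantile normalization called 682 higher and 584 lower of 22809 in TBI vs. Naïve. In Sham vs. Naïve it called 750 and 563 of 22784. With the 75th percentile taken across every probe the members called were 3, 2 and 1 for JM6, PMI and E33. Over all tested probes this called 6654 higher and 3334 lower, 5428 and 2737, and 6454 and 2768. Scaling to E1A control spots gave 0, 0, 2, 2 and 1, and normexp 0, 0, 1, 0 and 0. Over all tested probes, E1A scaling called 1206 higher and 78 lower in TBI vs. Naïve and 969 and 160 in Sham vs. Naïve. Normexp called only 35 and 5 in TBI vs. Naïve and 13 and 1 in Sham vs. Naïve. Against TBI, normexp called 4884 and 16 with JM6, 1435 and 0 with PMI and 3199 and 6 with E33. The authors' matrix gave 0 in TBI vs. Naïve, 0 in Sham vs. Naïve and 3, 1 and 2 for the drugs. Over all probes it called 784 higher and 565 lower in TBI vs. Naïve and 823 and 648 in Sham vs. Naïve. For JM6, PMI and E33 it called 3124 and 3046, 2298 and 2049, and 2439 and 2270. TBI vs. Naïve had 0 calls with no filter, with a gene's probes averaged, and with limma on the 2 groups alone. Over everything tested, these settings called 447 higher and 223 lower, 602 and 323, and 13 and 2. Probes above background on all arrays left 6 members and 3 calls for PMI, beside 7201 probes higher and 8 lower of 14295. The methods' t-test called 2 in Sham vs. Naïve, beside 2705 probes higher and 933 lower of 22753. It called 3 in TBI+PMI vs. TBI+E33, beside 63 and 3354 of 22824. After Benjamini-Hochberg it called 0 in TBI vs. Naïve, beside 0 and 1 of all probes, and 0 in Sham vs. Naïve, beside 0 and 0. For PMI it then called 2, beside 8108 and 6. Slide as a fixed block within the session gave 0 in both TBI vs. Naïve and Sham vs. Naïve. Over all probes it called 3 higher and 40 lower in TBI vs. Naïve and 8 and 7 in Sham vs. Naïve. Slide as a random block (consensus correlation -0.0867) kept Hes6 called in TBI vs. Naïve and Hey1 in Sham vs. Naïve. Leaving out the 3 choroid plexus arrays, chosen after seeing the data, gave 0 in TBI vs. Naïve and 3 for PMI. Over all probes it called 455 higher and 114 lower in TBI vs. Naïve and 10760 and 22 for PMI. Sham kept 1 array there and is not counted. With each array left out in turn the counts ran from 0 to 0 in TBI vs. Naïve, 4 to 6 for JM6 and 2 to 5 for PMI. They ran from 0 to 0 in TBI+JM6 vs. TBI+PMI. Comparisons with Sham or E33, which can keep 1 array in a group, are not counted. The cause of these changes was not tested.

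Replicate numbers did not pair the rats: deviations of same-numbered rats correlated at -0.185 to 0.183 (median 0.019, 36 pairs) and of others at -0.184 to 0.214. With the replicate block the counts, in the order above, were 1, 1, 6, 5 and 6, and 0 between the drug groups.

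These 37 reversals were all in drug groups against TBI, and their cause was not tested. Quantile normalization gave, for JM6, Hes5 -0.0235, Notch1 -0.26, Notch3 -0.63, Dll1 -0.47 and Jag1 -1.29, for PMI, Notch3 -0.71 and Dll1 -0.44, and for E33, Notch1 -0.13, Notch3 -0.60 and Dll1 -1.0005. A 75th percentile of every probe gave, for JM6, Hes6 -0.71 and Notch1 -0.26, and for E33, Notch1 -0.14 and Dll1 -0.10. E1A scaling gave, for JM6, Hes6 -0.99, Notch1 -0.54, Notch3 -0.13 and Dll1 -0.13, for PMI, Notch1 -0.78, Notch3 -0.34 and Dll1 -0.22, and for E33, Notch1 -0.60, Notch3 -0.12 and Dll1 -0.56. Normexp gave, for PMI, Notch3 -0.0682 and Dll1 -0.0496, and for E33, Dll1 -0.0526. The authors' matrix gave, for JM6, Hes6 -0.67, Notch1 -0.25, Notch3 -0.58, Dll1 -0.42 and Jag1 -1.15, for PMI, Notch3 -0.58 and Dll1 -0.38, and for E33, Notch1 -0.12, Notch3 -0.52 and Dll1 -0.89.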
